A study of Rattus norvegicus with 26 samples.

Results

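Genes of monoamine and acetylcholine signalling were followed in the dentate gyrus (DG) of the rat hippocampus, where the granule cells lie. The members were chosen by name, as 41 genes for the synthesis, breakdown, vesicular transport and reception of serotonin, dopamine, noradrenaline and acetylcholine, and the rows of a gene were summed by gene identifier. Of the 41 genes, 40 had a row among the 17910 genes of the series, and 37 averaged 5 or more normalized counts over all rats and were tested together with all 15595 genes that passed this limit. Htr7 was not analysed here, and Slc22a3, Htr1d and Drd4 stayed under the limit, with group means from 2.47 to 3.73, from 0.859 to 2.81 and from 1.06 to 2.01 normalized counts.

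The animals were male F344 rats 6 months of age, and 1 library was made from the DG of 1 hemisphere of each rat. The Veh group (n = 10) received vehicle and, per the study's methods, belonged to an ongoing study of ageing; the Dox group (n = 8) received the anthracycline doxorubicin by weekly intraperitoneal injection; and the Dox + ABT group (n = 8) received doxorubicin together with ABT-263, a senolytic inhibitor of Bcl-2 family proteins, by gavage. The 3 comparisons share rats: Veh enters the first and the second, Dox the first and the third, and Dox + ABT the second and the third. The granule cell gene Prox1 had means from 2467 to 2813 normalized counts by group.

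Serotonin and noradrenaline reach the DG through axons of the raphe nuclei and the locus coeruleus, and acetylcholine through axons of the medial septum, so most enzymes of their synthesis are made in cell bodies outside the tissue. Tyrosine hydroxylase (Th) and tryptophan hydroxylase (Tph2) carry out the first step of catecholamine and serotonin synthesis, both with tetrahydrobiopterin as cofactor, and aromatic L-amino acid decarboxylase (Ddc) carries out the next step for both. The transmitters act on receptors in the membranes of granule cells, interneurons and glia, nearly all of which couple to G proteins, while the nicotinic receptors and Htr3a are ion channels.

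The 3 enzymes that carry the largest differences are shown by the 250 bases before their transcription start, which are given to place these genes in the genome and which the measurements do not address. The bases are from RefSeq, on the assembly GRCr8, whereas the reads were aligned to rn6, and promoters matched 35 of the 41 genes, with 38 starts. Capitals mark TGACGTCA, the cyclic AMP response element, in Th, and TATAAA, the TATA box motif, in Tph2 and, as its reverse complement TTTATA, in Ddc. Th lies on the minus strand of chromosome 1 (chr1:207508219-207508468), Tph2 on the minus strand of chromosome 7 (chr7:52675640-52675889) and Ddc, with the first of its 3 listed starts, on the minus strand of chromosome 14 (chr14:90682784-90683033).
Th: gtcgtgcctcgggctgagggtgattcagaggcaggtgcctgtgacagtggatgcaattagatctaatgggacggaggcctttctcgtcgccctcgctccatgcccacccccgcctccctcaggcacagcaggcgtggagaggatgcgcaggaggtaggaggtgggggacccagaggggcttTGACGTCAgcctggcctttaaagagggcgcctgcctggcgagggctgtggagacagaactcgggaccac
Tph2: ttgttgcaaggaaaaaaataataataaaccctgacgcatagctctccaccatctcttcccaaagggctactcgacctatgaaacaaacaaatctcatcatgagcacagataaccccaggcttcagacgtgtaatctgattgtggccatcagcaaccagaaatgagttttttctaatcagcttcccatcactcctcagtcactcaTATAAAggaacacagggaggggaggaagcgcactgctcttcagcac
Ddc: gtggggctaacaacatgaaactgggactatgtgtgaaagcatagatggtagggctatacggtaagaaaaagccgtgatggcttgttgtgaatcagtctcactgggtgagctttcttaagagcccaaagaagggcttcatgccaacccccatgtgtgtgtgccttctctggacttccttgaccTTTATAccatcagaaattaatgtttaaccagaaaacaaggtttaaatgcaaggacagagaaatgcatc
The element of Th began 69 bases before the start, the match in Tph2 46 bases and that in Ddc 68 bases. Searched on both strands, TGACGTCA was in 1.59% of the 33469 promoters of the same length and, among the members, also in that of the vesicular transporter Slc18a2. TATAAA was in 12.9% of them, and among the members in Tph2 and Ddc alone, in Ddc at the first of its 3 starts and not at the others. CACGTG, an E-box, was in 5.59% of them and among the members in Chrna7. A match describes these letters and is not a site of binding.

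The libraries held an estimated 10143000 to 24309000 reads, and 1 read was worth 0.69 to 1.49 normalized counts. Within the groups the libraries fell into a first kind (4 rats of Veh, 5 of Dox and 7 of Dox + ABT) and a second (6 of Veh, 3 of Dox and 1 of Dox + ABT), split along the main axis of variation within groups and differing in the share of ribosomal protein genes (0.57% to 1.09% and 1.15% to 1.89%). The split was found from the values, so the differences of members that passed the threshold or had an unadjusted p under 0.05 are also given with the library kind in the model, or inside 1 kind.

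Replicates 1 and 2 of Dox stood apart from the other 6 Dox rats in several members. Their Htr1a levels were 166.0 and 156.0 normalized counts against 461.9 to 771.9 in the others. The same 2 rats were the lowest of Dox for Ddc, Qdpr, Adra2c and Maob and the highest for Th. With both left out, which was chosen after seeing the data, 1 member (Ddc) and 181 of all genes passed the threshold between Dox and Veh, 2 members (Adra2c and Chrm1) and 1292 genes between Dox + ABT and Veh, and 3 members (Adra1d, Chrm1 and Th) and 461 genes between Dox and Dox + ABT, of 15571 tested.

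Between Dox and Veh, 2 of the 37 members passed the study's threshold of p under 0.01 in limma's test, Ddc and Tph2, and both were lower in Dox. Over all tested genes 448 passed, a share of 2.87%, of which 1.02% were higher and 1.85% lower. Between Dox + ABT and Veh, 1 of 37 members passed, the muscarinic receptor gene Chrm1, which was lower in Dox + ABT, against 7.84% of all genes, 3.89% higher and 3.95% lower. Between Dox and Dox + ABT, 4 of 37 passed, Ddc and Th lower and Chrm1 and the adrenoceptor gene Adra1d higher in Dox, against 4.03% of all genes, 2.32% higher and 1.71% lower. Under arrayWeights, which weights each rat by its spread, 9, 7 and 5 members passed, and between Dox and Veh these included Chrna7 (0.57, p = 0.00098), Qdpr (-0.52, p = 0.00108), Maob (-0.36, p = 0.00112), Drd2 (-0.78, p = 0.00507) and Caly (-0.31, p = 0.00575). Between Dox + ABT and Veh they included Ppp1r1b (-0.44, p = 3.19e-05), Adra2c (-0.54, p = 0.000268) and Adra1d (-0.53, p = 0.00157). With arrayWeights and the library kind together, 2, 0 and 5 members passed, beside 293, 434 and 1662 of all 15595 genes. The 448 genes called between Dox and Veh became 742 in the first kind and 3150 under arrayWeights, and with 1 rat left out they ran from 266, without replicate 1 of Dox, to 707, without replicate 11 of Veh. The 1222 genes called between Dox + ABT and Veh became 214 with the library kind in the model, 172 in the first kind and 5297 under arrayWeights, and with 1 rat left out they ran from 694, without replicate 5 of Dox + ABT, to 2130, without replicate 11 of Veh. The 629 genes called between Dox and Dox + ABT became 1281 in the first kind and 1612 under arrayWeights, and with 1 rat left out the lowest count was 419, without replicate 5 of Dox + ABT. Counts of 2, 1 and 4 among 37 members were not set apart from these shares by any test. No member had a Benjamini-Hochberg adjusted p under 0.05 in limma's test (0 in each comparison), while 6, 3 and 8 members had an unadjusted p under 0.05, and the smallest adjusted p were 0.145, 0.118 and 0.181. Of the 37 members, 27 had lower means in Dox than in Veh on the log2 scale, 24 were lower in Dox + ABT than in Veh and 23 were lower in Dox than in Dox + ABT, with median log2 fold changes of -0.08, -0.06 and -0.05, where the median over all tested genes was 0.00 in each.

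**Figure D1:**
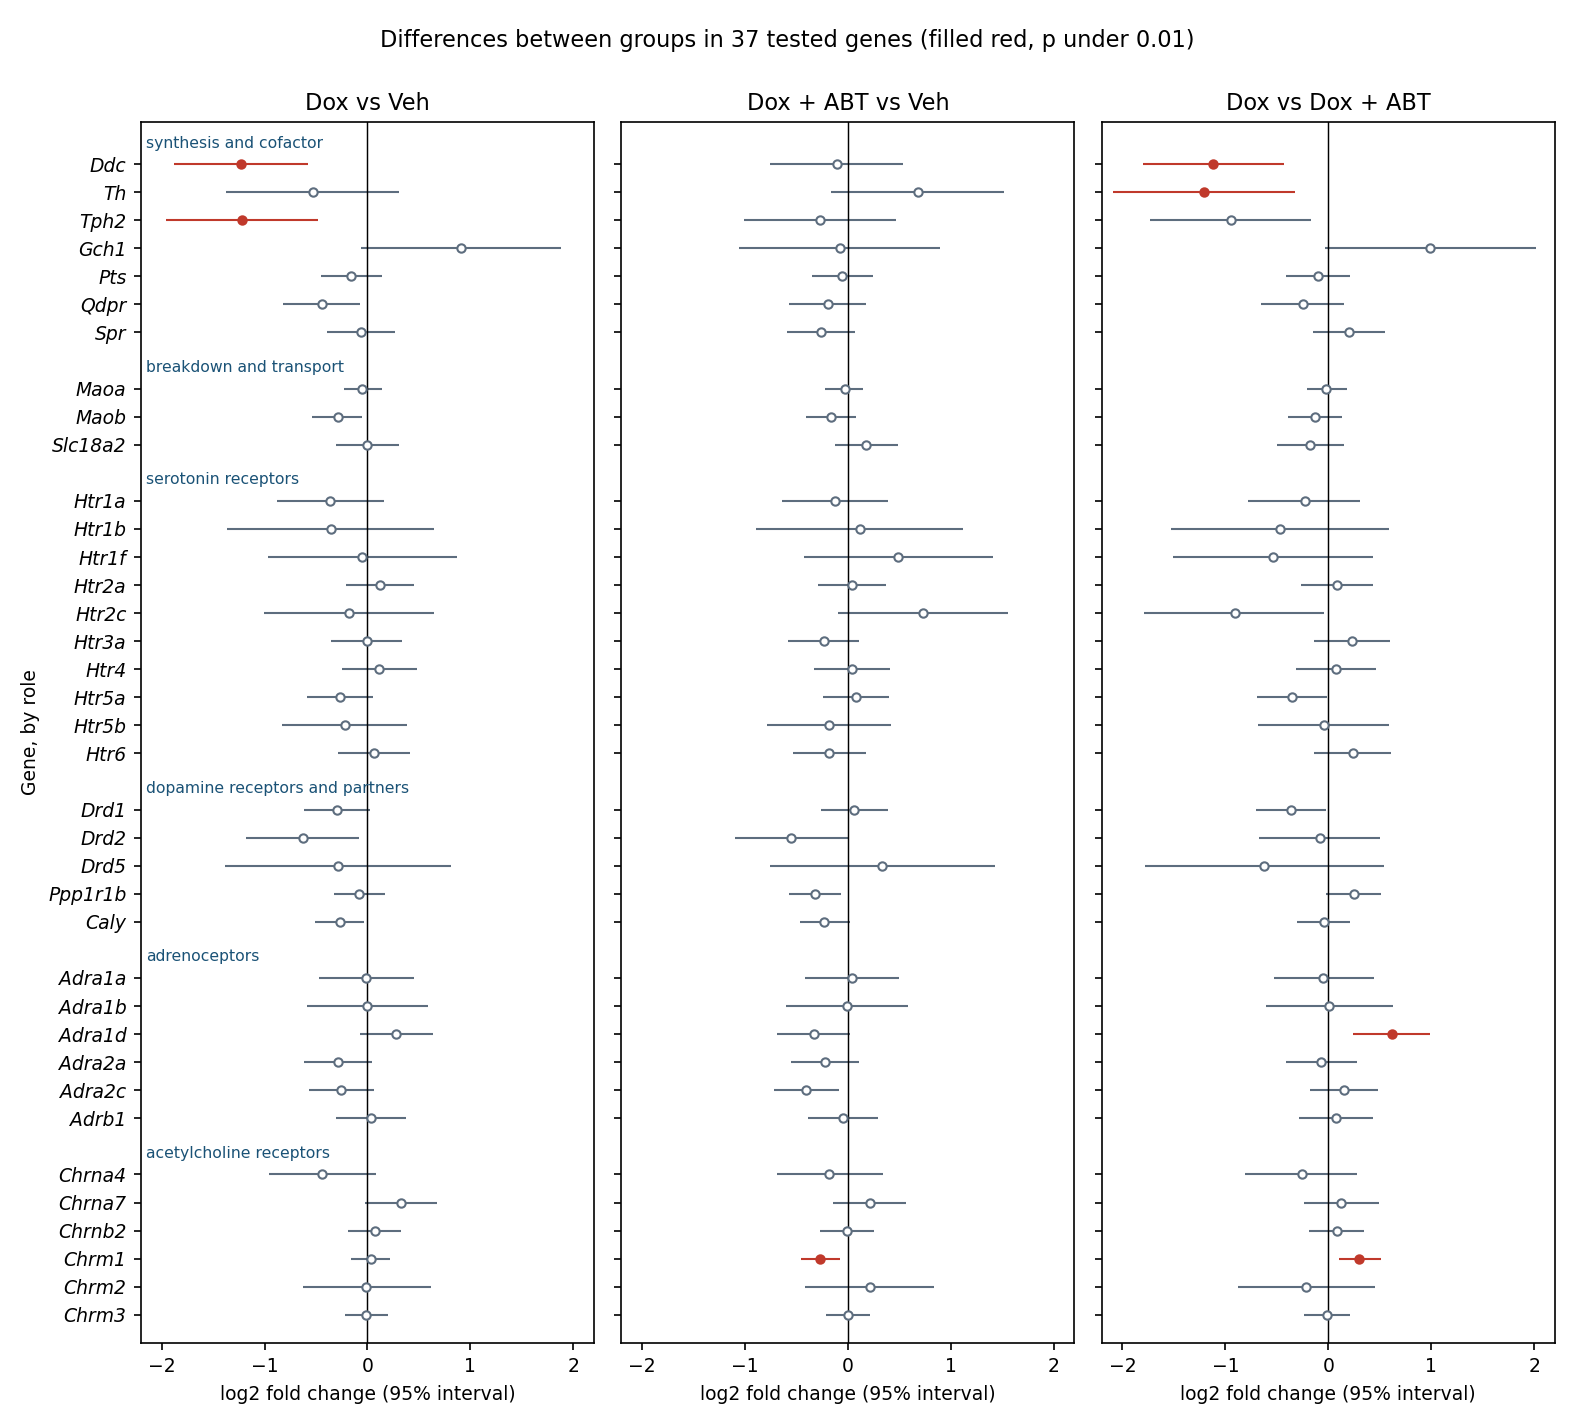
Log2 fold changes of the 37 tested genes in the 3 comparisons, grouped by role, with 95% intervals from limma's test on log2(normalized count + 1); filled red points have p under 0.01. Red points stand in the synthesis group, at Adra1d and at Chrm1, and the intervals are widest for Drd5, Htr1b and Gch1 in each comparison.

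Tph2, the enzyme that commits tryptophan to serotonin in neurons, was lower in Dox. Its level was 22.3 ± 7.39 normalized counts (SD, n = 10) in Veh against 9.76 ± 4.90 (SD, n = 8) in Dox, with 21.1 ± 11.4 (SD, n = 8) in Dox + ABT. The Veh rats ran from 10.9 through a median of 22.4 to 36.1, the Dox rats from 2.73 through 9.89 to 15.4, and the Dox + ABT rats from 3.06 through 23.7 to 37.8. All 8 Dox rats lay below the Veh median and 5 of them below every Veh rat, so the groups overlapped only in the 3 highest Dox rats and the lowest Veh rats, while Dox + ABT overlapped with both. The log2 fold change between Dox and Veh was -1.22 (standard error, SE, 0.36, p = 0.00216 and adjusted p = 0.219 in limma's test; exact permutation test, two-sided, p = 0.00064). It was -0.95 between Dox and Dox + ABT (p = 0.0187, adjusted p = 0.293), and -0.27 between Dox + ABT and Veh (p = 0.462). Tph2 rested on few reads, an estimated 3 to 22 per Dox rat and 8 to 34 per Veh rat. Leaving out 1 rat, replicate 11 of Dox + ABT and the lowest of that group at 3.06, moved the difference between Dox and Dox + ABT to -1.26 (p = 0.000639), and with the library kind in the model it was -1.07 (p = 0.00888). Without replicates 1 and 2 of Dox the difference between Dox and Veh was -1.06 and no longer passed (p = 0.0112). Within the kinds of library it was -0.84 in the first (p = 0.125) and -1.46 in the second (p = 0.00579). In bulk tissue, fewer cells or axons of a type and less RNA in each cannot be told apart, here and below.

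Ddc was lower in Dox than in both other groups. It had 32.4 ± 12.3 normalized counts (SD, n = 10) in Veh against 15.6 ± 9.52 (SD, n = 8) in Dox, with 29.4 ± 8.20 (SD, n = 8) in Dox + ABT. The Veh rats ran from 18.9 through a median of 27.9 to 58.4, the Dox rats from 2.85 through 16.0 to 26.7, and the Dox + ABT rats from 17.4 through 29.4 to 40.8. All 8 Dox rats lay below the medians of Veh and of Dox + ABT, 4 of them below every rat of either group, and the other 4 overlapped with both groups. The log2 fold change was -1.23 between Dox and Veh (SE 0.32, p = 0.000603 and adjusted p = 0.145 in limma's test) and -1.12 between Dox and Dox + ABT (SE 0.33, p = 0.00242 and adjusted p = 0.183 in limma's test). By the exact permutation test, two-sided, these had p = 0.00146 and p = 0.0104, and the latter did not pass the threshold. Between Dox + ABT and Veh the log2 fold change was -0.11, with a 95% interval from -0.76 to 0.54 (limma p = 0.73). Both differences passed p under 0.01 whichever 1 rat was left out, with log2 fold changes from -1.37 to -0.97 and from -1.26 to -0.86. Without replicates 1 and 2 of Dox together they were -0.71 (p = 0.00767) and -0.60 (p = 0.0275), so that the latter did not pass. In the first kind of library they were -1.70 (p = 0.00153) and -1.53 (p = 0.00119), and in the second the difference between Dox and Veh was -0.60 (p = 0.10). The gene had 3 transcript rows. Their means were 12, 2.66 and 17.7 in Veh against 6.08, 0.607 and 8.91 in Dox, with 10.4, 3.64 and 15.3 in Dox + ABT, lowest in Dox on each row. Both rows that were tested passed between Dox and Veh (-1.12, p = 0.00307, and -1.19, p = 0.00236), and neither did between Dox and Dox + ABT (-0.92, p = 0.017, and -0.99, p = 0.0136).

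Th did not pass the threshold between Dox and Veh and was lower in Dox than in Dox + ABT. It had 11.5 ± 8.76 normalized counts (SD, n = 10) in Veh against 8.54 ± 8.03 (SD, n = 8) in Dox, with 17.1 ± 7.70 (SD, n = 8) in Dox + ABT. The Veh rats ran from 4.12 through a median of 8.85 to 32.7, the Dox rats from 2.09 through 4.39 to 23.7, and the Dox + ABT rats from 7.07 through 14.6 to 27.4. In Dox, 5 of 8 rats lay below every Dox + ABT rat, whereas 2 lay above the Dox + ABT median, and the Veh rats overlapped with both groups. The log2 fold change between Dox and Dox + ABT was -1.21 (SE 0.43, p = 0.00944 and adjusted p = 0.246 in limma's test; exact permutation test, two-sided, p = 0.0214). It was -0.53 between Dox and Veh (p = 0.21) and 0.68 between Dox + ABT and Veh (p = 0.109). The call was close to the threshold: it held in 11 of the 26 fits that left out 1 rat, and p was 0.0112 with the library kind in the model and 0.125 in the first kind (-0.85). Without replicates 1 and 2 of Dox, the 2 highest of that group, the difference was -1.73 (p = 0.000212), and it was -1.05 between Dox and Veh (p = 0.0112).

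Apart from Slc18a2, genes that define the neurons whose axons supply these transmitters had few reads. Of 11 such genes, Th, Tph2 and Slc18a2 among them, 8 had a row, and their summed level ran from 127.7 to 221.7 normalized counts in Veh, from 110.1 to 212.9 in Dox and from 150.9 to 215.8 in Dox + ABT. Slc18a2 was a large part of these sums, with means of 92.8, 92.8 and 103.9 beside median sums of 191.0, 170.7 and 200.9. Slc6a2, Slc6a4 and Fev, the noradrenaline and serotonin transporters and a serotonergic transcription factor, were not analysed here. The dopamine transporter Slc6a3 had means from 0.782 to 2.56, and Chat, which makes acetylcholine, from 1.13 to 2.52, with 0 normalized counts in 6 of 10 Veh, 3 of 8 Dox and 1 of 8 Dox + ABT rats. The noradrenaline-making enzyme Dbh had means of 14.9 in Veh against 22.1 in Dox, with 16.2 in Dox + ABT, the choline transporter Slc5a7 had 29.1, 18.8 and 22.6, and the vesicular acetylcholine transporter Slc18a3 had 14.4, 11.8 and 10.3, and none of the 3 passed the threshold in any comparison. Beside the lower enzymes in Dox, markers of the meninges were also lower: 3 of 8 tested genes (Col3a1, Lum and Aldh1a2) passed in the comparisons of Dox with Veh and with Dox + ABT, and their list summed to 262.6 to 520.8 in Veh against 234.3 to 355.6 in Dox, with 294.9 to 770.8 in Dox + ABT. Their part in the result was not tested.

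**Figure D2:**
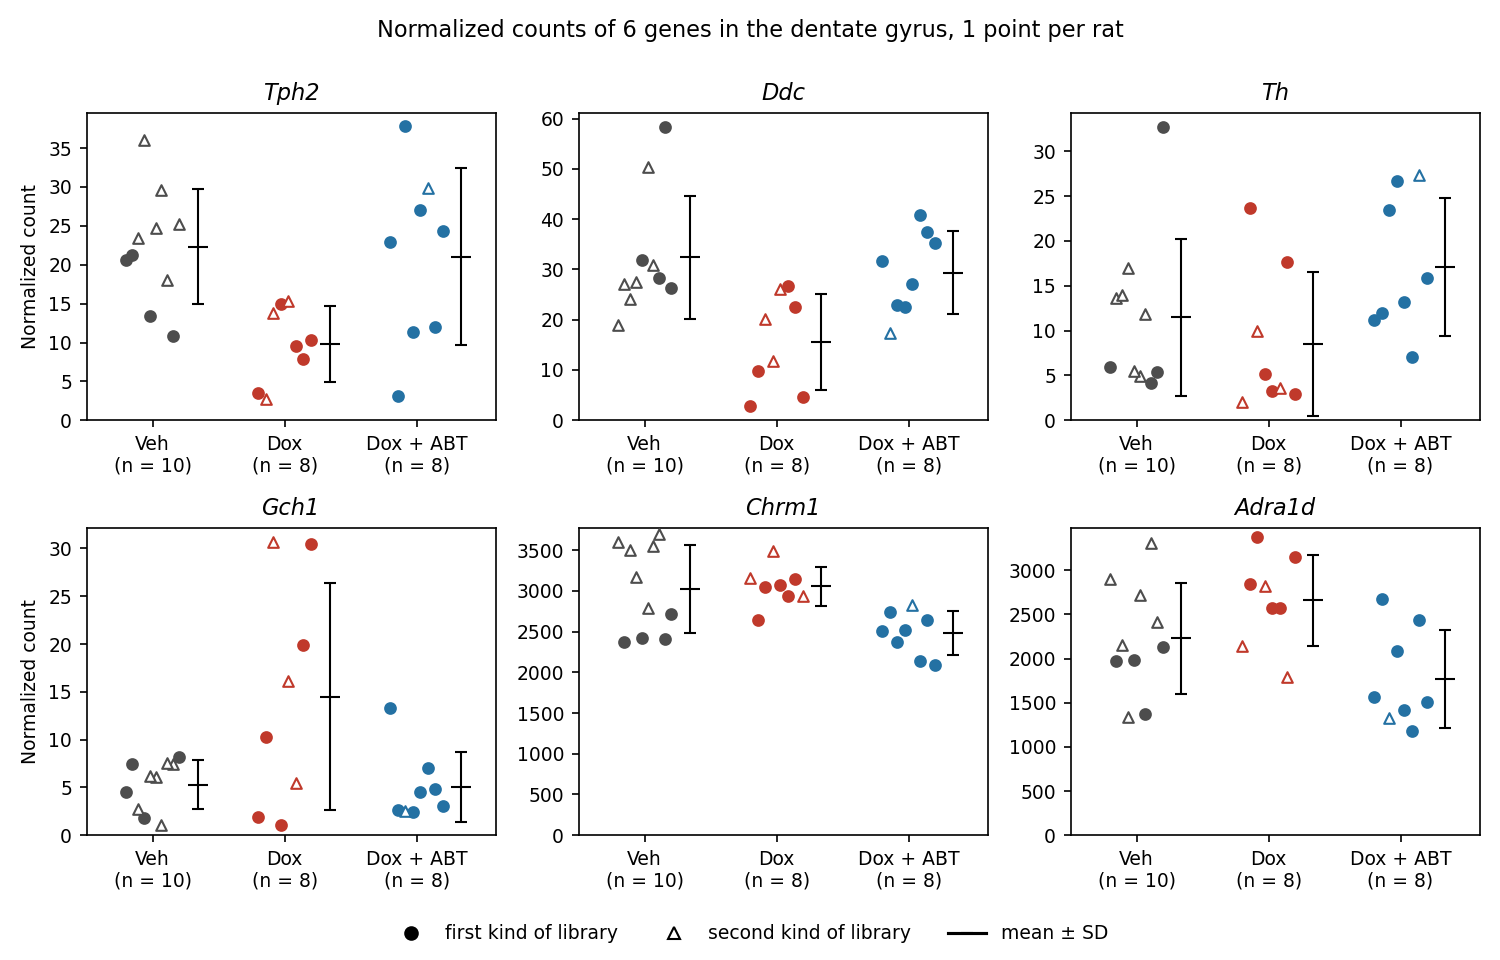
Normalized counts of Tph2, Ddc, Th, Gch1, Chrm1 and Adra1d, with 1 point per rat by group, filled circles and open triangles for the first and second kind of library, and bars for the mean ± SD. Of the 8 Dox rats, 5 lie below every Veh rat for Tph2 and 4 for Ddc, and for Gch1 5 lie above every Veh rat.

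Among the enzymes that make and recycle the cofactor tetrahydrobiopterin, none passed the threshold with equal weights and no covariate. GTP cyclohydrolase (Gch1), the first enzyme of cofactor synthesis, had 5.28 ± 2.59 normalized counts (SD, n = 10) in Veh against 14.5 ± 11.9 (SD, n = 8) in Dox, with 5.04 ± 3.69 (SD, n = 8) in Dox + ABT. The Veh rats ran from 1.10 through a median of 6.10 to 8.15, the Dox rats from 1.07 through 13.2 to 30.7, and the Dox + ABT rats from 2.41 through 3.79 to 13.3. The Dox rats were split, with 5 above every Veh rat and 2 within 1 normalized count of the lowest Veh rat. Red blood cell genes varied beside Gch1: 6 of 6 tested genes had higher means in Dox than in Veh (median log2 fold change 1.04) and than in Dox + ABT (1.43), with none past the threshold in limma's test and 2 and 3 at p under 0.05. The 4 Dox rats of the highest Gch1 level, from 16.1 to 30.7, had list sums from 26887 to 135352, against 3718 to 14626 in the other 4, whereas the Veh rat with a sum of 26855 had 1.10 of Gch1. Their part in the value of Gch1 was not tested. Between Dox and Veh the log2 fold change was 0.91 (SE 0.47, p = 0.0661 in limma's test) and 0.99 between Dox and Dox + ABT (limma p = 0.0572). Without replicate 13 of Dox, the lowest of that group at 1.07, these were 1.24 (p = 0.00884) and 1.33 (p = 0.00788), past the threshold. With the library kind in the model they were 0.94 (p = 0.0643) and 0.96 (p = 0.0746), and without replicates 1 and 2 of Dox 0.48 (p = 0.338) and 0.57 (p = 0.282). The gene rested on an estimated 1 to 44 reads per rat. Dihydropteridine reductase (Qdpr), which regenerates the cofactor, had 2201 ± 585.2 normalized counts in Veh against 1649 ± 594.4 in Dox, with 1883 ± 391.2 in Dox + ABT, with a log2 fold change of -0.44 between Dox and Veh (limma p = 0.0228). Without replicates 10 or 11 of Veh or replicate 14 of Dox this passed the threshold (-0.52, p = 0.00856; -0.53, p = 0.00616; -0.57, p = 0.0032). Without replicates 1 and 2 of Dox it was -0.21 (p = 0.242). With the library kind in the model it was -0.31 (p = 0.0347), and the difference of Qdpr between Dox and Dox + ABT went from -0.25 (p = 0.21) to -0.40 (p = 0.0099), which passed. The oligodendrocyte gene Cnp passed in the lower direction in the same comparison, and the part of oligodendrocytes in the value of Qdpr was not tested. Pts and Spr, which act between Gch1 and the finished cofactor, had group means from 59.5 to 65.9 and from 298.7 to 366.4.

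Breakdown and vesicular loading of the monoamines showed no member past the threshold. Monoamine oxidase B (Maob) had 892.0 ± 135.2 normalized counts (SD, n = 10) in Veh against 732.3 ± 150.6 (SD, n = 8) in Dox, with 801.4 ± 168.7 (SD, n = 8) in Dox + ABT. Maob differed between Dox and Veh by a log2 fold change of -0.29 (SE 0.12, p = 0.0212 and adjusted p = 0.428 in limma's test), and 3 Dox rats lay below every Veh rat. It was -0.41 within the first kind of library (p = 0.00518) and -0.03 within the second (p = 0.797), and without replicate 10 of Veh or replicates 5 or 7 of Dox it passed the threshold (-0.34, p = 0.00683; -0.35, p = 0.00753; -0.35, p = 0.0066). Without replicates 1 and 2 of Dox it was -0.19 (p = 0.136). Astrocytes, which express Maob, had 3 of 10 marker genes lower in Dox than in Veh at p under 0.01 (Gfap, Aqp4 and Aldh1l1), although 6 of the 10 had higher means in Dox and the median log2 fold change of the list was 0.04, with a list sum of 43058 to 65221 in Veh and 38240 to 47812 in Dox, and their part in the value of Maob was not tested. Monoamine oxidase A (Maoa) had 449.7, 434.0 and 437.0 normalized counts in Veh, Dox and Dox + ABT. The vesicular monoamine transporter Slc18a2 had 92.8, 92.8 and 103.9, with its smallest p between Dox + ABT and Veh (log2 fold change 0.18, limma p = 0.246). The difference of Slc18a2 between Dox and Dox + ABT was -0.18 (limma p = 0.268).

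None of the 10 tested serotonin receptor genes passed the threshold in any comparison. Htr2c, a Gq-coupled receptor with high levels in choroid plexus, had the smallest p, with a log2 fold change of -0.91 between Dox and Dox + ABT (SE 0.43, p = 0.0411 and adjusted p = 0.374 in limma's test). Its medians were 64.3 normalized counts in Veh against 65.5 in Dox, with 111.6 in Dox + ABT, and its ranges were 29.7 to 371.9, 34.9 to 117.6 and 67.2 to 347.8. Some rats of Veh and Dox + ABT thus stood far above the others, and 5 of 8 Dox rats lay below every Dox + ABT rat. Choroid plexus genes varied beside it, with a list sum of 263.4 to 388.8 in Veh against 205.4 to 651.2 in Dox, with 258.6 to 634.3 in Dox + ABT; Slc4a5 was lower in Dox than in Dox + ABT (log2 fold change -1.18, limma p = 0.0038) and Ttr, a defining gene, differed by -1.63 (p = 0.0147), while 2 of the 6 tested genes of the list had higher means in Dox, up to 0.81, and their part in the value of Htr2c was not tested. With the library kind in the model the difference of Htr2c was -0.88 (p = 0.054). Htr5a, a Gi-coupled receptor, had 80.4 ± 24.7 normalized counts (SD, n = 10) in Veh against 65.4 ± 13.6 (SD, n = 8) in Dox, with 83.1 ± 14.3 (SD, n = 8) in Dox + ABT. Between Dox and Dox + ABT its log2 fold change was -0.35 (limma p = 0.0424), and -0.26 with the library kind in the model (p = 0.0942). The Gi-coupled Htr1a, which mediates inhibition by serotonin in the hippocampus, had 601.4 ± 145.9 in Veh against 533.3 ± 256.2 in Dox, with 538.6 ± 56.7 in Dox + ABT. The ion channel Htr3a, the Gq-coupled Htr2a and the Gs-coupled Htr4 and Htr6 had group means from 58.9 to 70.0, from 62.3 to 66.2, from 66.8 to 73.1 and from 54.9 to 67.3. None of them had an unadjusted limma p under 0.05 over all rats. The 3 transcript rows of Htr4 did not move alike. The third averaged 9.01, 23.0 and 7.4 in Veh, Dox and Dox + ABT (1.90 between Dox and Dox + ABT, limma p = 0.0235). The first averaged 39.4, 35.8 and 42.0 and the second 18.5, 14.4 and 18.0, lowest in Dox. Htr1b and Htr1f, both Gi-coupled, varied widely between rats, with SDs of 44.2 to 71.6 around means of 58.3 to 84.4 and of 3.45 to 12.7 around means of 7.75 to 12. Htr5b ranged from 142.7 to 674.8 normalized counts over all rats, with group means from 275.1 to 302.3.

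None of the 5 tested dopamine receptors and partners passed the threshold. Their log2 fold changes between Dox and Veh ran from -0.63 to -0.08, but Ppp1r1b was at 0.03 with the library kind in the model. Markers of the striatum, Drd1 and Ppp1r1b among them, varied beside these members: 8 of 10 had lower means in Dox than in Veh, of which Penk and Gpr6 passed, and Penk and Adora2a passed as lower in Dox + ABT than in Veh. Their list summed to 3324 to 4538 normalized counts in Veh against 3075 to 4188 in Dox, with 3055 to 3616 in Dox + ABT, and their part in these values was not tested. The Gi-coupled Drd2 had 21.6 ± 8.48 normalized counts (SD, n = 10) in Veh against 13.1 ± 3.76 (SD, n = 8) in Dox, with 14.9 ± 7.38 (SD, n = 8) in Dox + ABT. Its log2 fold change between Dox and Veh was -0.63 (SE 0.27, p = 0.027 and adjusted p = 0.446 in limma's test). All 8 Dox rats lay below the Veh median of 19.9, and with the library kind in the model the difference was -0.53 (p = 0.0534). Drd2 also marks hilar mossy cells, of whose 8 listed genes none passed the threshold in that comparison in limma's test (0 of 8, Drd2 among them with its p under 0.05). Its first of 2 transcript rows averaged 13.4 in Veh and 5.13 in Dox without passing the threshold (p = 0.0286), while the second had 8.17 and 7.95. The Gs-coupled Drd1 had 94.1, 77.8 and 99.9 normalized counts in Veh, Dox and Dox + ABT, with a log2 fold change of -0.36 between Dox and Dox + ABT (limma p = 0.0377), and -0.30 with the library kind in the model (p = 0.0753). Ppp1r1b (DARPP-32), a phosphatase inhibitor downstream of dopamine receptors, had 1703 ± 332.9 in Veh against 1609 ± 302.2 in Dox, with 1353 ± 248.1 in Dox + ABT, with a log2 fold change of -0.32 between Dox + ABT and Veh (SE 0.12, p = 0.0133 in limma's test). With the library kind in the model this was -0.10 (p = 0.233). Without replicate 4 of Dox + ABT, the only rat of that group in the second kind and the highest at 1948, it was -0.40 (p = 0.00193). Without replicates 10 or 11 of Veh it was -0.38 (p = 0.00322) and -0.37 (p = 0.00373). Caly (calcyon), which interacts with dopamine receptor signalling, had 4166, 3438 and 3515 normalized counts in Veh, Dox and Dox + ABT. Between Dox and Veh its log2 fold change was -0.27 (limma p = 0.0317), with -0.21 when the library kind was in the model (p = 0.0604) and -0.32 without replicate 11 of Veh (p = 0.00849). The first of its 2 transcript rows passed the threshold, at -0.35 between Dox and Veh (p = 0.00961) and -0.35 between Dox + ABT and Veh (p = 0.00958), and the second did not (p = 0.0657 and p = 0.137). Drd5 had group means from 8.12 to 13.2, with SDs from 7.97 to 11.7.

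Of the 6 tested adrenoceptor genes, Adra1d alone passed the threshold, higher in Dox than in Dox + ABT. This Gq-coupled receptor had 2230 ± 629.7 normalized counts (SD, n = 10) in Veh against 2658 ± 513.6 (SD, n = 8) in Dox, with 1773 ± 555.2 (SD, n = 8) in Dox + ABT. The Veh rats ran from 1338 through a median of 2144 to 3311, the Dox rats from 1789 through 2695 to 3373, and the Dox + ABT rats from 1176 through 1532 to 2676. All 8 Dox rats lay above the Dox + ABT median and 4 above every Dox + ABT rat, and Veh overlapped with both. Between Dox and Dox + ABT the log2 fold change was 0.62 (SE 0.18, p = 0.00216 and adjusted p = 0.181 in limma's test; exact permutation test, two-sided, p = 0.00699), and it was 0.71 in the first kind of library (p = 0.000575). It was 0.28 between Dox and Veh (p = 0.115), with 0.65 in the first kind (p = 0.00383) and -0.11 in the second (p = 0.666), and -0.33 between Dox + ABT and Veh (p = 0.0635). Adra2c, a Gi-coupled receptor, had 584.1 ± 101.9 normalized counts in Veh against 505.8 ± 158.2 in Dox, with 440.2 ± 79.3 in Dox + ABT, and its log2 fold change between Dox + ABT and Veh was -0.41 (SE 0.15, p = 0.0133 in limma's test; exact permutation test, two-sided, p = 0.00532). All 8 Dox + ABT rats lay below the Veh median and 4 below every Veh rat. With the library kind in the model the difference was -0.27 (p = 0.0949), and without replicate 5 of Veh, replicate 1 of Dox, or replicates 4 or 11 of Dox + ABT it passed the threshold (p from 0.0061 to 0.00912), as it did without replicates 1 and 2 of Dox together (p = 0.00306). Adra1a, Adra1b and the Gs-coupled Adrb1 had group means from 102.2 to 105.9, from 16.1 to 16.9 and from 163.7 to 176.4, and Adra2a had 95.6, 78.3 and 82.6 in Veh, Dox and Dox + ABT.

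Among the 6 acetylcholine receptor genes, Chrm1 passed the threshold against Dox + ABT from both sides. The Gq-coupled muscarinic receptor of principal neurons had 3023 ± 539.3 normalized counts (SD, n = 10) in Veh against 3055 ± 242.1 (SD, n = 8) in Dox, with 2481 ± 267.1 (SD, n = 8) in Dox + ABT. The Veh rats ran from 2377 through a median of 2977 to 3698, the Dox rats from 2643 through 3065 to 3493, and the Dox + ABT rats from 2087 through 2515 to 2824. Of the 8 Dox rats, 7 lay above every Dox + ABT rat, whereas Veh overlapped with both groups and 2 Dox + ABT rats lay below every Veh rat. Veh had its 4 rats of the first kind from 2377 to 2722 and its 6 of the second from 2785 to 3698. Dox exceeded Dox + ABT by a log2 fold change of 0.30 (SE 0.10, p = 0.00449 and adjusted p = 0.199 in limma's test; exact permutation test, two-sided, p = 0.000622). It was 0.29 in the first kind of library (p = 0.0013) and 0.23 with the kind as a covariate (p = 0.00549). Without replicate 7 of Dox, or replicates 5 or 11 of Dox + ABT, p was 0.0112, 0.0118 and 0.0125. Between Dox + ABT and Veh the log2 fold change was -0.27 (SE 0.09, p = 0.00701 and adjusted p = 0.118 in limma's test; exact permutation test, two-sided, p = 0.023), but it was -0.14 with the library kind in the model (p = 0.0911) and -0.03 within the first kind (p = 0.69). Under quantile normalization it was -0.17 (p = 0.0249), which did not pass. Chrm1 differed between Dox and Veh by 0.03 over all rats (p = 0.731), but by 0.26 in the first kind (p = 0.00903), where 4 of 5 Dox rats lay above every Veh rat, and by -0.08 in the second (p = 0.487). Dox + ABT held 7 of its 8 rats in the first kind and Veh 4 of its 10. The granule cell marker C1ql2 was also lower in Dox + ABT than in Veh (log2 fold change -0.46, limma p = 0.000697), the single one of 9 tested granule cell genes to pass, and its part in the value of Chrm1 was not tested. Chrm3, also Gq-coupled, had group means from 897.7 to 903.0 and the Gi-coupled Chrm2 had medians from 18.6 to 25.1.

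The nicotinic subunits did not pass the threshold in the fit with equal weights. Chrna7, which forms the homomeric channel, had 357.0 ± 104.2 normalized counts (SD, n = 10) in Veh against 442.3 ± 90.2 (SD, n = 8) in Dox, with 412.2 ± 106.5 (SD, n = 8) in Dox + ABT. Between Dox and Veh its log2 fold change was 0.33 (SE 0.17, p = 0.0604 in limma's test). Within the kinds of library it was 0.21 (p = 0.319) and 0.25 (p = 0.10). Chrna4 and Chrnb2, which together form the most common heteromeric channel of the brain, had 256.2, 175.1 and 233.1 and 690.5, 741.5 and 684.8 normalized counts in Veh, Dox and Dox + ABT, and the SDs of Chrna4 in Veh and Dox + ABT, 117.9 and 122.2, exceeded the differences between groups.

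**Figure D3:**
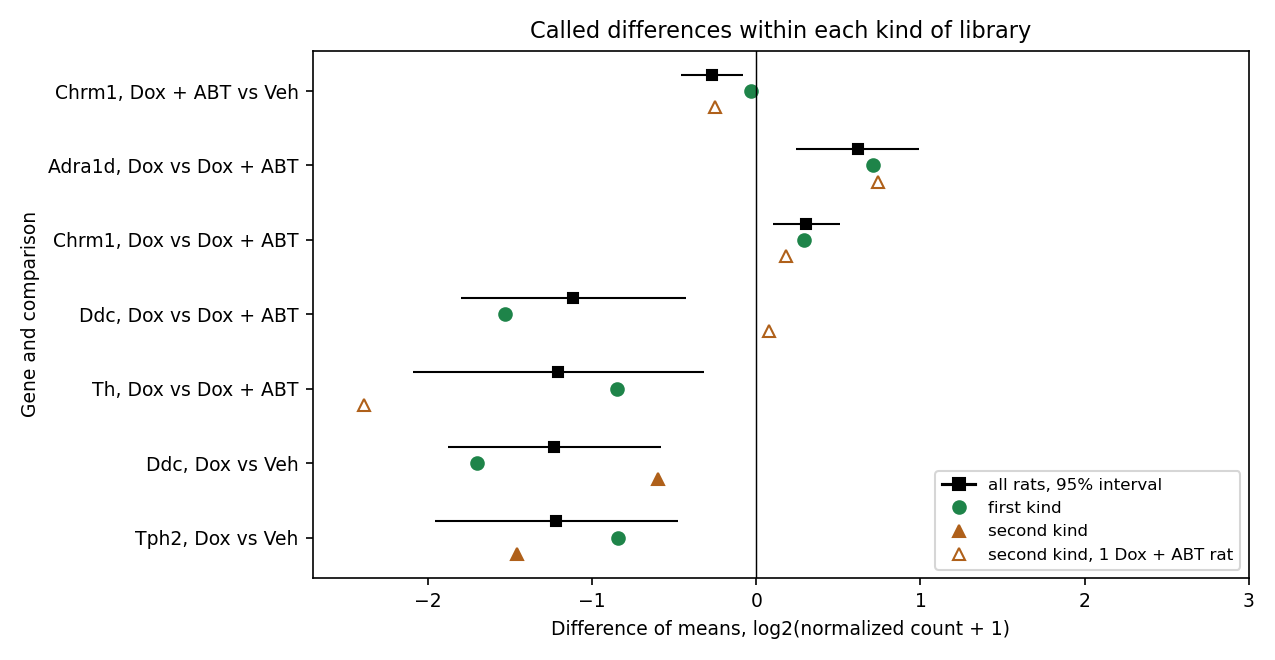
Log2 differences for the 7 differences past p under 0.01, over all rats (squares, 95% interval) and as differences of means within the first (circles) and the second kind of library (triangles, open where the second kind holds 1 Dox + ABT rat). Chrm1 between Dox + ABT and Veh was -0.03 within the first kind, whereas Ddc lay at -1.70 within the first kind and at -0.60 within the second between Dox and Veh.

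**Figure D4:**
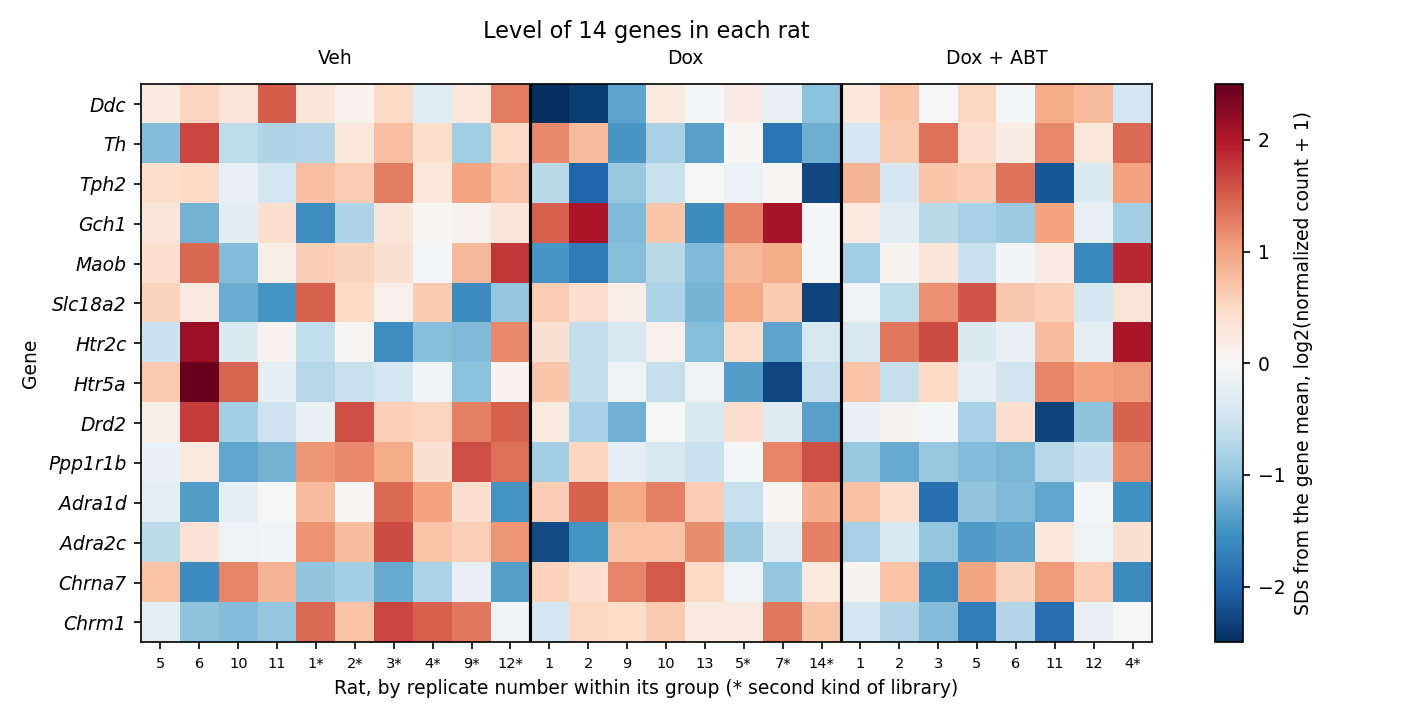
Level of 14 genes in each of the 26 rats, in SDs from the gene's mean over all rats on the log2(normalized count + 1) scale, with rats ordered by group and kind of library (second kind marked by an asterisk). Ddc is lowest in replicates 1 and 2 of Dox, at 2.85 and 4.69 normalized counts, while Gch1 is highest in replicates 2 and 7 of Dox.

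Other genes of the same pathways were taken from a list of 91 names in 4 groups, of which 74 were tested. The 2, 6 and 2 that passed in the 3 comparisons stand against the shares of 2.87%, 7.84% and 4.03% of all genes, and are near or under them. Between Dox and Veh, 1 passed in each direction, the phenol sulfotransferase Sult1a1, which conjugates phenols and catecholamines, higher at 0.79 (SE 0.19, p = 0.000232 and adjusted p = 0.114 in limma's test) and the adenylyl cyclase Adcy2 lower at -0.27 (limma p = 0.00235). Sult1a1 had 214.2 ± 15.9 normalized counts in Veh against 419.9 ± 237.7 in Dox, with 235.5 ± 28.2 in Dox + ABT, so the Dox rats spread far more than the others, from 204.3 to 792.0. Between Dox + ABT and Veh, 2 were higher, the adenylyl cyclase Adcy8 and the phospholipase Plcb4, and 4 lower, the G protein subunit Gnai2, the receptor kinase Grk2, the aldehyde dehydrogenase Aldh2 and the monoamine transporter Slc29a4. Between Dox and Dox + ABT, Sult1a1 was higher at 0.66 (limma p = 0.00237) and the nicotinic subunit Chrna5 lower at -1.06 (limma p = 0.0037). With the library kind in the model these were 0.65 (p = 0.00333) and -1.07 (p = 0.0041). Chrna5 had 38.4 ± 25.1 normalized counts in Veh against 19.2 ± 4.71 in Dox, with 46.7 ± 29.1 in Dox + ABT.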

How the data were processed

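Dentate gyrus RNA of 26 rats, 1 library each, was sequenced on an Ion Proton instrument after poly(A) selection. Per the labels and the study's methods, the authors aligned the reads to rn6 with STAR 2.5.3a in Partek Flow and divided the counts by each library's Median Ratio factor; they then used DESeq2, whose results were not used here. The deposited values are therefore a normalized signal, in normalized counts, and not raw counts. Low values were whole multiples of 1 read (within 0.02) for 75.4% to 80.1% of values per library, too few to recover raw counts, and no count test was run.

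The 24012 transcript rows were summed by gene identifier. Groups were compared with limma 3.58.1 under R 4.3.3, by eBayes with a trend of the variance, on log2(normalized count + 1), for the 15595 genes that averaged 5 or more, with all 26 rats in 1 fit and no covariate. The test was two-sided, with the study's threshold of p under 0.01, and Benjamini-Hochberg adjustment covered all tested genes. Fold changes on this scale understate those of low genes. Each rat is 1 animal, so p-values measure the spread between rats. The library kinds came from the first principal component of deviations from group means over genes that averaged 20 or more, which carried 28.4% of the within-group variance.

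Statistics are given for members past the threshold, for Ddc and Gch1, and for the 2 members of each role group with the smallest p; other members are given by level, and those with an unadjusted p under 0.05, as well as Htr1a, were given more fully after their values were seen. The members and lists were chosen with earlier results of these data known. A listed marker gene is not reported here. Alternatives were pseudocounts of 0.5 and 5, no filter, a mean of at least 20, trimmed-mean and quantile scaling, no variance trend, robust eBayes, arrayWeights, 2 groups alone, the replicate number as a block, the kind of library as a covariate, exact permutation tests, transcript rows as deposited, and leaving out each rat. Fits within a kind of library, arrayWeights together with the kind of library, and a fit without replicates 1 and 2 of Dox, were chosen after seeing the data. Motifs were counted in RefSeq promoters, and matplotlib 3.10.9 under Python 3.11.15 drew the figures.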

Additional observations from a re-analysis of the deposited data

Results flagged for a closer look

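Of 111 combinations of a member and a group, 4 held a rat whose distance from its neighbour took more of the group's range on the log2 scale than Dixon's 95% limit allows, where chance gives about 1 in 20. In Dox + ABT, the highest Qdpr value was 2783.2 normalized counts, with the other 7 rats from 1460.5 to 1891.2, and the highest Ppp1r1b value was 1948.2, with the others from 1190.0 to 1376.1. Both belong to replicate 4, the rat of that group in the second kind of library. The lowest Htr2a value in Dox + ABT was 35.1, in replicate 3, with the others from 59.4 to 76.7. The lowest Adra2a value in Dox was 44.6, in replicate 2, with the others from 70.2 to 92.2.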

How the results depend on the processing

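The counts of members past the threshold moved by over 1.5 times as follows. Between Dox and Veh the count of 2 became 1 with a mean of at least 20, in the second kind of library and without Dox replicates 1 and 2, 4 in the first kind and 9 under arrayWeights. Over all genes, 388 of 13667 passed at that mean and 181 of 15571 without those 2 rats. Of 15595 genes, 556 passed in the second kind, 742 in the first and 3150 under arrayWeights. Between Dox + ABT and Veh the count of 1 became 0 under quantile normalization, with the library kind in the model, with arrayWeights together with it and in the first kind, 2 on transcript rows and without Dox replicates 1 and 2, and 7 under arrayWeights. Over all genes, 1223 passed under quantile normalization and 5297 under arrayWeights. With the library kind in the model 214 passed, with arrayWeights together with it 434, and in the first kind 172. Between Dox and Dox + ABT the count of 4 became 1 with the replicate block. It became 2 by exact permutation tests, run on members alone, and on transcript rows, for which no count over all rows is given. With 1 rat left out the counts ran from 2 to 4 between Dox and Veh, from 0 to 3 between Dox + ABT and Veh and from 2 to 4 between Dox and Dox + ABT. At the higher limit Tph2, with a mean of 18.1 normalized counts over all rats, was not among the genes tested. The causes of the other moves were not tested. Log2 fold changes turned sign for Ddc between Dox + ABT and Veh under arrayWeights (0.12), for Tph2 in the same comparison in the first kind (0.02) and without Dox + ABT replicate 11 (from -0.42 to 0.04 over the fits without 1 rat), and for Th with the replicate block in the comparisons of Dox with Dox + ABT (0.16) and with Veh (0.55), for Slc18a2 with the replicate block between Dox and Dox + ABT (0.07), for Adra1d between Dox and Veh in the second kind (-0.11), and for Chrm1 in that comparison under arrayWeights (-0.08), with the replicate block (-0.01) and in the second kind (-0.08). The numbers name different rats: in 16 same-numbered pairs the deviations correlated from -0.22 to 0.44, 6 of them over 0.1, and 1 of 23 rats correlated best with its own number, so the replicate block is not a paired analysis. Over all tested genes it called 765, 1180 and 403. It also ended the calls between Dox and Dox + ABT of Adra1d (0.46, p = 0.083) and Chrm1 (0.26, p = 0.0572), and that of Chrm1 between Dox + ABT and Veh (-0.27, p = 0.0101), and it brought past the threshold Caly between Dox and Veh (-0.44, p = 0.0072) and Ppp1r1b between Dox + ABT and Veh (-0.34, p = 0.00847). Chrm1 between Dox + ABT and Veh missed the threshold without Veh replicates 1, 2, 3, 4 or 9 or Dox + ABT replicates 3, 5 or 11 (p up to 0.02), and Th between Dox and Dox + ABT missed it in 15 of 26 such fits (p up to 0.0254). Of 1262 recomputed values of single members, 1168 kept direction and side of the threshold. Genes under about 20 normalized counts, Th, Tph2 and Gch1 among them, rest on few reads.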
